A study of Mus musculus with 4 samples.

Results

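The cells described here are capillary endothelial cells of mouse fracture callus, the soft tissue that forms on a broken bone. They were chosen by their raw UMI counts (UMIs are the molecular identifiers that count captured mRNA molecules) of 12 genes. A cell had to hold at least 2 *Pecam1* and 1 *Cdh5* UMIs, which mark endothelium, and at least 3 UMIs of *Gpihbp1* and *Kdr* together. It could hold at most 2 UMIs of the venular genes *Selp* and *Ackr1*, at most 2 of the arterial genes *Sema3g*, *Gja4* and *Gja5*, at most 1 of the proliferation gene *Mki67*, and none of the lymphatic gene *Prox1* or the leukocyte gene *Ptprc*. Of 25479 cells kept from 34038 barcodes, 3600 were endothelial and 768 of those met every condition. The remaining 2832 cells with endothelial transcripts are called other endothelial cells below.

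All mice were wild-type C57BL/6J, male per the study's methods and 3 months old, and all carried a tibial fracture. Control mice received vehicle (PBS per the methods) and RA mice received K/BxN serum, injected repeatedly per the methods, which passes on autoantibodies and causes an arthritis that stands in for rheumatoid arthritis. Callus was collected 4 or 7 days post fracture (dpf), and the labels give 1 library per condition, named control_4d, control_7d, RA_4d and RA_7d, each from a pool of 4 calluses per the series' design text (the methods give another number). The animal behind each cell is not recorded. Because each condition is 1 library, no test between conditions was possible. The intervals given are exact 95% intervals for counting error alone, and those of UMI levels and ratios leave out the spread between cells. Differences between animals, dissections and libraries cannot be told apart from differences between conditions.

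Capillaries are the narrowest vessels, where oxygen, nutrients and fatty acids pass from blood to tissue. GPIHBP1 on their luminal surface holds lipoprotein lipase, which releases fatty acids from circulating lipoproteins, and CD36 helps to take them up. In healing bone, new vessels sprout from existing ones behind a leading tip cell, which responds to VEGF through VEGFR2, the product of *Kdr*, and expresses genes such as *Esm1*, *Apln* and *Dll4*.

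The capillary cells numbered 125 in control_4d, 91 in RA_4d, 299 in control_7d and 253 in RA_7d. Together they held 2868910, 2081794, 4470889 and 3857723 UMIs in the same order. The cells of the 4 dpf libraries were deeper, with medians of 20861 UMIs in control_4d and 21884 in RA_4d against 13181 in control_7d and 14448 in RA_7d. The median mitochondrial share lay between 2.31% and 2.51% in the 4 libraries. Pairs of libraries shared 10 to 31 barcodes, and no barcode was a capillary cell in both libraries of a pair.

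Cells just inside and just outside the limits of the gate are given here as a description. The 34 capillary cells with exactly 3 *Gpihbp1* and *Kdr* UMIs had 326 CPM (UMIs scaled to a sum of 1000000) of *Cldn5* and 97.7 CPM of *Prnd*. The 26 cells that failed only that condition, with 2 UMIs, had 199.5 and 137 CPM. At the venular limit, 68 cells with 2 *Selp* and *Ackr1* UMIs had 51.1 CPM of *Prnd* and 56 cells with 3 UMIs had 39.3 CPM. At the arterial limit, 52 cells with 2 UMIs had 475 CPM of *Cldn5* and 242 CPM of *Prnd*, and 40 cells with 3 UMIs had 576 and 185 CPM. All 768 capillary cells, which lack *Prox1* and *Ptprc*, had 406 CPM of *Cldn5* and 208 CPM of *Prnd*. The 35 cells with 1 *Prox1* UMI had 528 and 228 CPM, and the 28 cells with 1 *Ptprc* UMI had 359 and 178 CPM. At the limit on *Mki67*, 93 cells with 1 UMI had 352 CPM of *Cldn5* and 257 CPM of *Prnd*, and 29 cells with 2 UMIs had 137 and 177 CPM.

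The name capillary was checked on markers. *Gpihbp1* (chr15:75596628-75599481 on GRCm38) reached 553 CPM in control_4d, 563 in RA_4d, 491 in control_7d and 593 in RA_7d, against 129 to 185 CPM in other endothelial cells. It chose the cells, as did *Kdr* at 305, 353, 344 and 350.5 CPM, so neither is a finding. *Prnd*, which encodes the prion-like protein doppel (chr2:131950861-131956130), was not used by the gate. It reached 222, 143, 276 and 153 CPM in the capillary cells of control_4d, RA_4d, control_7d and RA_7d, against 63.1, 34.6, 93.5 and 33.5 CPM in other endothelial cells. *Cldn5*, the main claudin of endothelial tight junctions, was at 368, 394, 372 and 479 CPM against 319, 358, 499 and 414 CPM, so in control_7d it was lower in capillary cells. Endothelial cells with the arterial exclusion alone held 1020, 1043, 1307.5 and 1418 CPM of *Cldn5*, above the capillary cells in each library. Those cells, and the cells with the venular exclusion alone below, met the other exclusions. They were not required to hold *Gpihbp1* or *Kdr* UMIs. Cells thinned to 4000 UMIs held a *Prnd* UMI in 36.0%, 16.5%, 42.8% and 26.5% of capillary cells, against at most 0.174% of haematopoietic cells, which should lack it.

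Of 16 capillary identity genes, 11 were above other endothelial cells in all 4 libraries and 2 in none, beside 18.8% of the 9183 genes compared that were above in all 4. The list includes the gate genes *Gpihbp1* and *Kdr*. *Aqp1*, a water channel, was among the 2, at 407, 425, 180.5 and 554 CPM against 1122, 1168, 443 and 1312 CPM. *Car4*, a carbonic anhydrase, was at 7.32, 16.3, 1.12 and 1.56 CPM. The summed level of the list was 10525, 12334, 9614 and 11747 CPM in capillary cells and higher in cells with the venular exclusion alone, at 11073, 12804, 11054 and 13614 CPM. In those cells *Prnd* was at 4.10, 7.02, 12.9 and 9.29 CPM and *Cldn5* at 28.3, 89.9, 36.0 and 77.5 CPM, below the capillary cells in each library. Venular identity genes were lower in capillary cells in all 4 libraries for 12 of 13, arterial identity genes for 13 of 15 and lymphatic ones for 6 of 6, beside 28.7% of the 9183 genes compared that were below in all 4. Each of those lists holds genes that the gate excluded cells by, so the counts are not findings.

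Among 9183 genes compared, 17 were at least 2-fold higher than in other endothelial cells in all 4 libraries (0.185%) and 319 at least 2-fold lower (3.47%). The contrast is the one that chose the cells, so these values describe them and are no test. Among genes that reached 100 CPM in the higher of both sums in every library, the leading genes besides *Prnd* were *Rgcc*, a regulator of the cell cycle, *Trp53i11*, and *Nid2*, a basement membrane nidogen. The log2 ratios of *Rgcc* were 1.54, 1.40, 1.72 and 2.19 in control_4d, RA_4d, control_7d and RA_7d. Those of *Trp53i11* were 1.51, 1.48, 1.35 and 1.501, and those of *Nid2* 1.12, 1.19, 1.16 and 1.37. *St8sia4*, a polysialyltransferase, *Adgrl4*, an adhesion receptor of endothelium, *Prnp*, the prion protein gene, *Ccser1*, and *Fscn1*, which bundles actin, were also among the 10 highest of these, with a weakest log2 ratio between 0.78 and 0.91. *Trp53i11*, *Nid2* and 10 further genes of a 16-gene tip cell list were above other endothelial cells in all 4 libraries, beside 18.8% of all genes compared, and 1 was in none. The summed level of that list was 1998, 1796, 1984 and 1397 CPM in capillary cells and 1606, 1279, 2198 and 1504 CPM in cells with the arterial exclusion alone, so at 7 dpf it was higher in the latter.

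The lowest genes above the same level are known from neutrophils, lymphatic vessels, myeloid cells and larger vessels. *Camp*, *S100a9*, *Ngp* and *S100a8*, which encode neutrophil granule and cytosolic proteins, were at most 36.5 CPM in capillary cells and between 146 and 3073 CPM in other endothelial cells. Other endothelial cells include those with *Ptprc* UMIs, which the gate removed. A list of 5 neutrophil markers summed to 1967, 6067, 3788 and 2228 CPM in them. In cells with the venular exclusion alone, which lack *Ptprc*, it summed to 8.43, 138, 30.0 and 9.16 CPM. *Ccl21a*, the lymphatic chemokine, *Lyz2* and *Tyrobp* of myeloid cells, *Mctp1*, *Eln*, the elastin gene, and *Vwf*, the von Willebrand factor gene, completed the 10. *Vwf* was at 39.4, 49.96, 35.1 and 44.8 CPM in capillary cells, against 368, 354, 207 and 468 CPM.

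**Figure D1:**
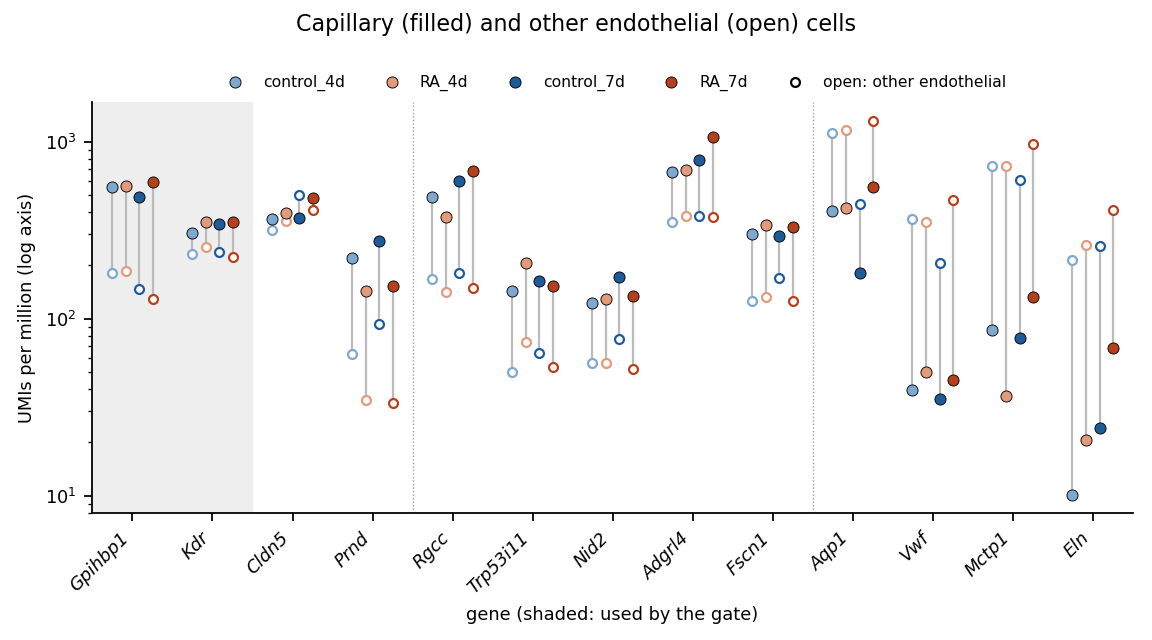
CPM (log axis) of 13 genes in capillary cells (filled points) and other endothelial cells (open points) of each library, joined by a line. The shaded genes were used by the gate. *Prnd* and the 5 genes to its right were higher in capillary cells of each library, *Cldn5* in all but control_7d, and the 4 genes at the right were lower.

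Against endothelial cells with at least 3 *Selp* and *Ackr1* UMIs that met the other exclusions, 74 of 6640 genes (1.11%) were at least 2-fold higher in all 4 libraries and 153 (2.3%) at least 2-fold lower. After *Prnd* the order by weakest library was *Igfbp3*, *Nes* and *Cxcr4*, genes picked here after their values were seen. *Igfbp3*, an IGF-binding protein, had log2 ratios of 7.02, 5.17, 3.44 and 3.26 in control_4d, RA_4d, control_7d and RA_7d. Against those with at least 3 UMIs of *Sema3g*, *Gja4* and *Gja5* and no other exclusion, 45 of 4871 genes (0.924%) were higher and 130 (2.67%) lower. *Piezo2*, a mechanosensitive channel, stood first with a weakest log2 ratio of 2.32, and *Apln* had 1.91.

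The first comparison concerns how many capillary cells each callus yielded. Their share of kept cells was 2.29% (1.91-2.72) in control_4d, 2.21% (1.79-2.71) in RA_4d, 3.90% (3.47-4.35) in control_7d and 3.08% (2.71-3.47) in RA_7d. The share in RA_4d was 0.969 times that in control_4d (0.731-1.28), a difference not detectable at this depth. The share in RA_7d was 0.790 times that in control_7d (0.665-0.937). Among endothelial cells the shares were 17.5%, 17.3%, 29.8% and 18.7%, and RA_7d held 0.629 times the share of control_7d (0.530-0.746). In RA_7d and control_7d, 51.8% and 29.8% of endothelial cells failed the condition on *Selp* and *Ackr1*, 22.04% and 15.5% that on *Prox1*, and 4.36% and 9.65% that on *Mki67*, and a cell can fail several.

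Depth matters to a gate on raw UMIs, because a deeper cell exceeds the limits on *Selp*, *Ackr1* and the arterial genes more easily. With each cell thinned to 8000 UMIs before gating, the capillary share was 3.47%, 3.76%, 4.51% and 3.87% of kept cells in control_4d, RA_4d, control_7d and RA_7d. The ratio of RA_7d to control_7d was then 0.858 (0.728-1.01) of kept cells and 0.680 (0.577-0.802) of endothelial cells. From 4 to 7 dpf the share of kept cells was 1.70 times as high in controls (1.38-2.12) and 1.39 times in RA (1.09-1.79). After thinning these ratios were 1.30 (1.08-1.58) and 1.03 (0.839-1.27). Among endothelial cells they were 1.70 (1.38-2.12) in controls and 1.08 (0.850-1.39) in RA, and after thinning 1.33 (1.103-1.62) and 0.813 (0.662-1.00), so in RA the direction turned with the denominator and depth. Dissociation can lose cells of a type selectively, and its part in these shares was not tested.

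**Figure D2:**
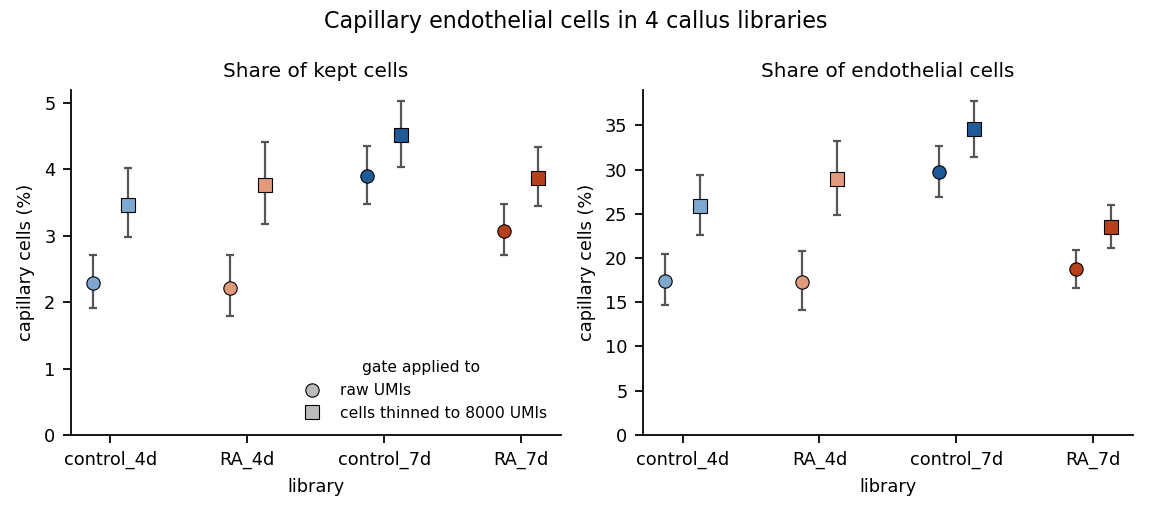
Capillary cells as a percentage of kept cells (left) and of endothelial cells (right) in each library, with the gate applied to raw UMIs (circles) or to cells thinned to 8000 UMIs (squares). Bars are exact 95% binomial intervals. RA_7d lies below control_7d in both panels, and the libraries of 4 dpf rise most with thinning.

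The second comparison asks how the capillary cells of RA fractures differed in expression from those of control fractures. UMIs of the capillary cells were summed per library. A gene entered when its UMIs in the pair of libraries came to 100 or more, and its log2 ratio was taken after adding 1 CPM. A gene is counted as higher or lower past 1.5-fold. At 4 dpf 290 of 6269 genes were higher in RA (4.63%) and 190 lower (3.03%), so 60.4% of the genes past 1.5-fold were higher, against 40.1% with TMM scaling. At 7 dpf 313 of 7983 genes were higher (3.92%) and 219 lower (2.74%). The comparisons at 4 and 7 dpf share no library. Of 6262 genes compared at both times, 44 were higher at both, 30 lower at both and 17 past 1.5-fold in opposite directions. Among those 6262 genes, 288 were higher and 188 lower at 4 dpf, and 164 higher and 142 lower at 7 dpf.

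Several tip cell genes were lower in RA. At 4 dpf 3 of the 14 compared were past 1.5-fold lower and none higher, with a median log2 ratio of -0.25 against 0.02 over all genes. At 7 dpf 5 of 15 were lower and none higher, with a median of -0.46 against 0.02 over all genes. None of the 15 was above 0 at 7 dpf. Over all genes 3.03% were lower at 4 dpf and 2.74% at 7 dpf. In other endothelial cells the medians of the list were -0.05 at 4 dpf and -0.55 at 7 dpf. The median at 4 dpf was 0.08 in cells thinned to 4000 UMIs, and at 7 dpf it lay between -0.57 and -0.36 over 9 alternatives. The list had been written with earlier results of these data known.

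*Esm1* encodes endocan, a proteoglycan that VEGF induces (chr13:113209659-113218098). It was at 84.7 CPM in control_4d and 28.8 in RA_4d, and at 53.0 in control_7d and 14.3 in RA_7d. Both RA libraries were below both control libraries. The ratio of RA to control was 0.340 at 4 dpf (0.252-0.453) and 0.269 at 7 dpf (0.197-0.362). The *Esm1* log2 ratio stayed between -1.90 and -1.29 at 4 dpf and between -2.11 and -1.38 at 7 dpf over 8 alternatives. In control_4d 1 cell held 23.5% of the *Esm1* UMIs, and without the highest cell of each library the log2 ratios were -1.44 and -2.05. Other endothelial cells had a lower level in RA too, with *Esm1* log2 ratios of -2.22 and -2.00.

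*Apln*, the ligand of the apelin receptor (chrX:48025146-48034853), was at 152 CPM in control_4d, 108 in RA_4d, 161 in control_7d and 71.3 in RA_7d. Its ratio was 0.713 at 4 dpf (0.604-0.839), short of 1.5-fold, and 0.444 at 7 dpf (0.385-0.511). *Aplnr*, the receptor, was at 328, 467, 345 and 390 CPM, with RA above control at each time. *Plaur*, the urokinase receptor, was at 89.2, 52.4, 59.3 and 34.5 CPM, so both RA libraries were below the control library of the same time. *Igfbp3* was at 335 and 307 CPM at 4 dpf, where the interval of the ratio included 1 (0.915, 0.827-1.01), and at 247 and 116 CPM at 7 dpf (0.470, 0.421-0.526). *Pgf*, a VEGF family ligand, was at 68.3 CPM in control_4d and 32.2 in RA_4d, past 1.5-fold, and at 69.3 and 50.3 CPM at 7 dpf, where its log2 ratio of -0.46 was short of 1.5-fold. *Unc5b*, a netrin receptor, completed the list at 7 dpf with 26.4 against 15.04 CPM. *Dll4*, *Angpt2*, *Cxcr4* and *Pdgfb* had log2 ratios between -0.48 and -0.18 at both times.

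*Prnd* was lower in RA at both times (log2 ratios -0.63 and -0.85). The share of capillary cells with a *Prnd* UMI was 59.2% in control_4d (50.1-67.9), 45.1% in RA_4d (34.6-55.8), 58.9% in control_7d (53.1-64.5) and 41.1% in RA_7d (35.0-47.4). After thinning to 4000 UMIs it was 36.0%, 16.5%, 42.8% and 26.5%. The share in RA was lower than in control at each time on both scales. Within *Prnd*-positive cells, the *Prnd* level was lower as well (345 against 270 CPM at 4 dpf and 426 against 331 CPM at 7 dpf, control first).

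**Figure D3:**
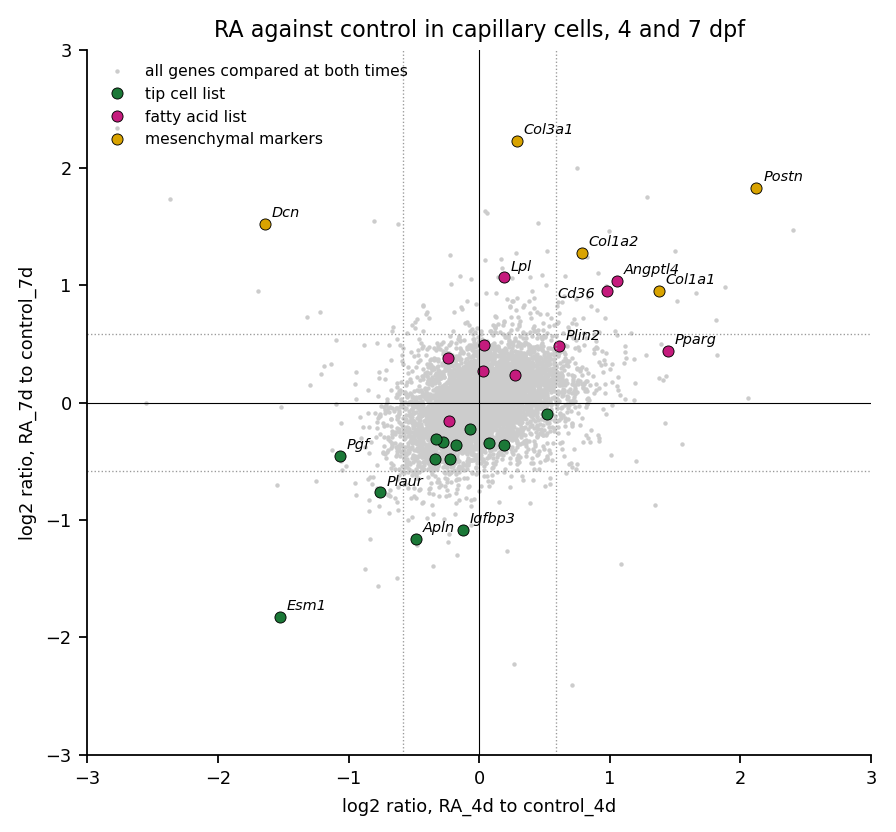
Log2 ratio of RA to control in capillary cells at 4 dpf (horizontal) and 7 dpf (vertical) for 6262 genes, of which 7 lie outside the axes. Dotted lines mark 1.5-fold. Tip cell genes (green) lie mostly below 0 on the vertical axis, fatty acid genes (pink) mostly above 0, and mesenchymal markers (yellow) scatter widely.

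Some genes of fatty acid handling were higher in RA. The list includes the gate gene *Gpihbp1*. At 4 dpf 4 of 10 compared were higher, beside 4.63% of all genes, and none lower (median log2 ratio 0.23). At 7 dpf 3 of 11 were higher, beside 3.92% of all genes, and none lower (median 0.44). The median over all genes was 0.02 at both times. The medians of the list over the 9 alternatives stayed between 0.16 and 0.49 at 4 dpf and between 0.36 and 0.47 at 7 dpf. *Cd36*, the fatty acid transporter (chr5:17781690-17888801), was at 416 CPM in control_4d, 819 in RA_4d, 378 in control_7d and 732 in RA_7d. The ratio was 1.97 at 4 dpf (1.83-2.12) and 1.93 at 7 dpf (1.82-2.06), and both RA libraries were above both controls. *Angptl4*, which inhibits lipoprotein lipase (chr17:33773750-33781830), was at 102, 212, 90.8 and 187 CPM in the same order, with ratios of 2.09 (1.80-2.43) and 2.06 (1.82-2.33). The medians of the list in other endothelial cells were 0.07 at 4 dpf and 0.45 at 7 dpf, the latter close to that in capillary cells. In those cells the log2 ratios were smaller for both genes, 0.34 and 0.72 for *Cd36* and 0.27 and 0.59 for *Angptl4*, against 0.97 and 0.95 and against 1.05 and 1.03 in capillary cells. The difference between the cell types was not tested.

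*Pparg*, the lipid-sensing nuclear receptor, was at 32.4 CPM in control_4d and 89.8 in RA_4d (ratio 2.77, 2.15-3.59) and at 40.7 and 55.5 CPM at 7 dpf (1.36, 1.11-1.67). *Plin2*, which coats lipid droplets, was at 89.6 and 137 CPM at 4 dpf (1.53, 1.29-1.82) and at 82.8 and 116 CPM at 7 dpf (1.40, 1.21-1.61). *Lpl*, lipoprotein lipase itself, passed 1.5-fold at 7 dpf, on 48 UMIs in control_7d and 91 in RA_7d. *Fabp4*, the most abundant gene of the list, was at 6378, 7716, 5619 and 6601 CPM, with log2 ratios of 0.27 and 0.23. *Fabp5* did not follow it, with -0.23 and -0.16. *Gpihbp1* had 0.03 and 0.27.

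The promoter windows of 3 of these genes are shown because the genes each passed 1.5-fold at 4 dpf and the 6-base half-site bound by PPAR-type nuclear receptors can be searched in them. The letters AGGTCA were sought on both strands (TGACCT on the other), after the values had been seen, in windows of 250 bases before to 50 after the start from RefSeq on GRCm38.p6. Windows existed for 7 of the 13 listed genes, and 3 of the 7 held the letters, against 16.3% of all 32851 windows and 18.1% of genes with a window. *Angptl4*, *Lpl* and *Fabp4* had none to search. Capitals mark the match. The *Cd36* window is chr5:17835847-17836146 on the minus strand, with its match starting 228 bases before the start, that of *Plin2* is chr4:86670010-86670309 on the minus strand, with its match 218 bases before, and that of *Pparg*, 1 of 3 windows of the gene, is chr6:115362099-115362398 on the plus strand, with its match 9 bases before. A second *Pparg* window, chr6:115360894-115361193 on the plus strand, also held the letters, 28 bases before the start, and the third did not. A match is a description of letters and not a binding site.
Cd36: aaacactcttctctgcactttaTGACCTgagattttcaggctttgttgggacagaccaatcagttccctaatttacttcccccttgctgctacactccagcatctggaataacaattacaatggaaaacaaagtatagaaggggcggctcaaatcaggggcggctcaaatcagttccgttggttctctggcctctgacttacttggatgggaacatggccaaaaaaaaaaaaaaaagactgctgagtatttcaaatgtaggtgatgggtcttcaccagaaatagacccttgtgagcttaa
Plin2: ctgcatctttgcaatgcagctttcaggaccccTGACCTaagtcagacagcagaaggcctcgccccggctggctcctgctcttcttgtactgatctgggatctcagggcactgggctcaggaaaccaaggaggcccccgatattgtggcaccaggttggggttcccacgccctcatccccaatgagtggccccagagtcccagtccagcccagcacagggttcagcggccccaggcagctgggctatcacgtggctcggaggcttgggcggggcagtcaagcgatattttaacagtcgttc
Pparg: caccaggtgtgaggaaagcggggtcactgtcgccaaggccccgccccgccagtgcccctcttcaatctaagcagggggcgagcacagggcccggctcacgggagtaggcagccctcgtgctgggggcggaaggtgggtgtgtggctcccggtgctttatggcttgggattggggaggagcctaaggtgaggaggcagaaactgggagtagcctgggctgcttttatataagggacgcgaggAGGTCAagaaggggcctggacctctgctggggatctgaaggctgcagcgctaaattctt

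*Aqp1* and *Cd300lg*, a receptor of capillary endothelium, were past 1.5-fold higher in RA at 7 dpf and within it at 4 dpf, and the difference between the times was not tested. *Aqp1* was at 407 CPM in control_4d, 425 in RA_4d, 180.5 in control_7d and 554 in RA_7d, so control_7d stood apart from the other 3 libraries. Its ratio was 1.05 at 4 dpf (0.957-1.14) and 3.07 at 7 dpf (2.83-3.33), and the log2 ratio at 7 dpf was 1.56 in other endothelial cells. *Cd300lg* was at 90.3, 108, 76.0 and 160 CPM, with log2 ratios of 0.25 at 4 dpf and 1.06 at 7 dpf and a ratio of 2.10 at 7 dpf (1.84-2.41). Of the capillary identity list, 1 of 13 was higher and 1 lower at 4 dpf, and 4 of 14 were higher and 1 lower at 7 dpf, the lower one being *Prnd* both times. The shares of all genes were 4.63% higher and 3.03% lower at 4 dpf, and 3.92% higher and 2.74% lower at 7 dpf.

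**Figure D4:**
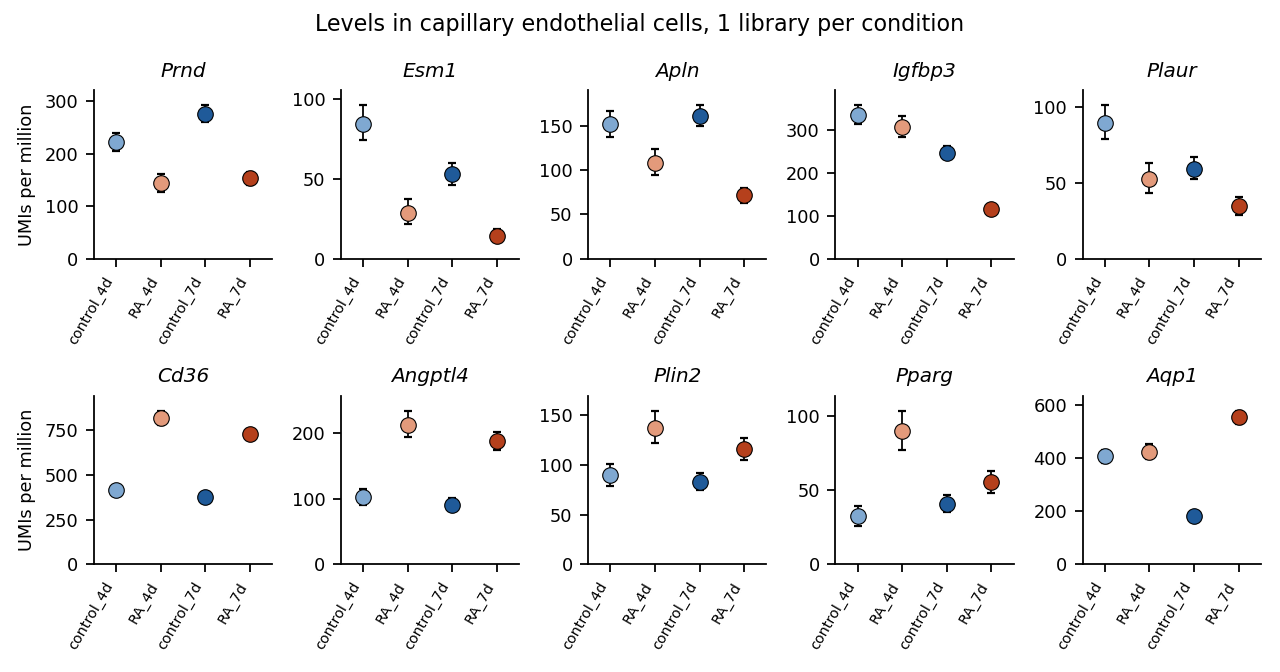
CPM in capillary cells of each library for 10 genes, with exact 95% Poisson intervals for counting error. *Prnd*, *Esm1* and *Plaur* were lower in RA than in control at each time, *Cd36*, *Angptl4*, *Plin2* and *Pparg* higher, and *Aqp1* was low in control_7d.

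Capillary cells varied among themselves along *Prnd*. *Prnd*-positive cells numbered 74 in control_4d, 41 in RA_4d, 176 in control_7d and 104 in RA_7d. They were deeper than *Prnd*-negative cells in each library (for example a median of 24984 against 18324 UMIs in control_4d), and levels were compared as CPM. Among the 5 genes highest with *Prnd* by their weakest library were *Cxcr4*, a chemokine receptor, *AA467197*, *Cd276*, an immune checkpoint ligand, and *Lxn*, a carboxypeptidase inhibitor. *Cxcr4* was at 122 CPM in *Prnd*-positive and 12.7 CPM in *Prnd*-negative cells of control_4d, and its log2 ratio in the 4 libraries was at least 1.31. The 5 lowest were *Slc6a6*, a taurine transporter, *Aqp1*, *Fbln2*, a fibulin, *Slco2a1*, a prostaglandin transporter, and *Iigp1*, an interferon-induced GTPase. *Aqp1* was at 197 CPM in *Prnd*-positive and 784 CPM in *Prnd*-negative cells of control_4d, and its log2 ratio was at most -1.52.

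Values of RA and control within each kind of cell follow as a description. The split rests on detection of *Prnd*, which was itself lower in RA and depends on depth, so it does not separate a difference in expression from one in the makeup of the cells. *Esm1* came mostly from *Prnd*-positive cells, where it was at 129 CPM in control_4d, 53.4 in RA_4d, 73.9 in control_7d and 25.3 in RA_7d. *Cd36* was higher in *Prnd*-negative cells, at 709 CPM in control_4d and 1262 in RA_4d, but its log2 ratio of RA to control was 0.75 in *Prnd*-positive and 0.83 in *Prnd*-negative cells at 4 dpf, and 0.72 and 0.90 at 7 dpf. *Angptl4* had 0.84 and 1.16 at 4 dpf and 0.70 and 1.33 at 7 dpf. *Apln* had -0.37 and 0.21 at 4 dpf, on 78 UMIs in the negative cells, and -1.01 and -0.97 at 7 dpf. *Igfbp3* differed in sign at 7 dpf, where its log2 ratio was -1.26 in *Prnd*-positive cells and 0.60 in *Prnd*-negative ones.

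The other named genes lower in RA at both times are given with their known roles, and no list covers them. *Eif6*, which joins the maturing large ribosomal subunit, was at 155 CPM in control_4d, 95.1 in RA_4d, 146 in control_7d and 84.8 in RA_7d. *Nhp2*, of the small nucleolar particles that modify ribosomal RNA, was at 128, 79.3, 127 and 73.1 CPM. *Mrto4*, a factor of ribosome assembly, *Dut*, the dUTPase, *Ddx39*, an RNA helicase, and *Ranbp1*, of nuclear transport, had log2 ratios between -0.94 and -0.64. *Akr1b8*, an aldo-keto reductase, was at 86.1, 47.6, 51.9 and 27.0 CPM. *Eif6* kept a log2 ratio between -0.79 and -0.46 at 4 dpf and between -0.95 and -0.62 at 7 dpf over the alternatives.

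Of 17 cell cycle genes, among them the gate gene *Mki67*, 1 of 10 compared was lower in RA at 4 dpf (median log2 ratio -0.26), and 8 of 11 at 7 dpf (median -0.80), with none higher at either time. Over all genes 3.03% were lower at 4 dpf and 2.74% at 7 dpf. The median of the list at 4 dpf was 0.095 in cells thinned to 4000 UMIs, and at 7 dpf it lay between -0.82 and -0.47 over 9 alternatives. The replication genes *Mcm3* (43.4 CPM in control_7d and 21.5 in RA_7d) and *Tyms*, thymidylate synthase (57.9 and 29.6 CPM), had log2 ratios of -0.98 and -0.95 at 7 dpf. The median in other endothelial cells was -0.67 at 7 dpf. In glycolysis and hypoxia 3 of 17 genes were lower at 7 dpf and 1 higher, beside 2.74% and 3.92% of all genes. The lower ones were *Tpi1*, *Pgk1* and *Ldha* (255 CPM in control_7d and 162 in RA_7d). At 4 dpf 1 of 17 was higher and none lower. The 25 genes of oxidative phosphorylation moved little each, with a median of -0.21 at 4 dpf and -0.25 at 7 dpf and 1 gene past 1.5-fold.

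Some chemokine genes were lower in RA at 7 dpf. At 4 dpf 2 of 11 genes of leukocyte adhesion were higher in RA and 1 lower. That list includes the gate genes *Selp* and *Ackr1*. At 7 dpf 5 of 14 were lower in RA, namely *Ccl2*, *Cxcl2*, *Cxcl9*, *Cxcl10* and *Vcam1*, and 2 were higher. Over all genes 4.63% were higher and 3.03% lower at 4 dpf, and 3.92% higher and 2.74% lower at 7 dpf. The median log2 ratio of the list at 7 dpf was -0.07, with 7 of 14 above 0. *Ccl2*, the monocyte chemokine, was at 122 CPM in control_4d, 66.3 in RA_4d, 84.8 in control_7d and 31.1 in RA_7d. In control_4d 44.7% of its UMIs came from 1 cell, and with the gate applied after thinning the *Ccl2* log2 ratio at 4 dpf was 0.43 instead of -0.87. In other endothelial cells the *Ccl2* log2 ratios were 1.01 and 0.086. Of the *Cxcl9* UMIs in control_7d, 84.4% came from 1 cell, and without the highest cell of each library the *Cxcl9* log2 ratio at 7 dpf was -0.42 instead of -2.41.

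Of the 10 named genes higher in RA at both times, 5 encode matrix or growth factor-binding proteins typical of mesenchyme, namely *Col1a1*, *Col1a2*, *Col5a2*, *Postn* and *Igfbp5*. *Postn*, periostin, was at 34.9 CPM in control_4d, 155 in RA_4d, 106 in control_7d and 377 in RA_7d. *Col1a1*, the type I collagen chain, was at 205, 533, 545 and 1055 CPM. A list of 8 mesenchymal markers includes *Col1a1*, *Col1a2* and *Postn*. At 4 dpf those 3 were the only ones past 1.5-fold higher of 5 compared, and 1 was lower, beside 4.63% and 3.03% of all genes. At 7 dpf 7 of 7 compared were higher, beside 3.92% of all genes. The summed level of the 8 markers was 840, 1429, 1565 and 4488 CPM, the most abundant being *Col3a1* or *Col1a1*, and none of the 8 was at 0. Cells with at least 2 *Prrx1* and *Pdgfra* UMIs, genes of mesenchymal cells, numbered 1, 2, 9 and 14 among the capillary cells. Those 26 cells held 76.6%, 92.7%, 65.7% and 86.2% of the *Col1a1*, *Col1a2*, *Col3a1* and *Postn* UMIs.

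Without those 26 cells the RA to control differences in type I collagen and periostin were near 0 or opposite. The log2 ratio of *Col1a1* was -0.54 at 4 dpf and -0.070 at 7 dpf, against 1.37 and 0.95 with them. That of *Postn* was -0.91 and -0.11, against 2.12 and 1.83. *Col1a2* had -0.43 and 0.084, and *Col5a2* 0.50 and 0.027. Without called doublets the 4 dpf ratios were -0.53 for *Col1a1* and -0.93 for *Postn*. *Igfbp5* had 98.9% of its RA_4d UMIs in 1 cell, and without the highest cell of each library its log2 ratio at 4 dpf was -0.82 instead of 4.25. At 7 dpf *Igfbp5* stayed higher in RA, with a log2 ratio of 2.06, and 2.79 without the 26 cells. Over 8 alternatives its 7 dpf ratio was at least 0.46. The remaining named genes kept their direction without the 26 cells. *Fbln5*, an elastic fibre protein, was at 22.3 CPM in control_4d, 72.5 in RA_4d, 41.8 in control_7d and 80.6 in RA_7d. *Adipor2*, an adiponectin receptor, was at 116, 209, 130 and 243 CPM. *Chga*, chromogranin A, was at 40.4, 81.7, 63.5 and 177 CPM, in RA_4d with 38.2% of its UMIs in 1 cell. Globin transcripts were uneven too, with 5 erythroid markers summing to 2804, 5.28, 448 and 730 CPM. In control_4d 3 cells held 96.2% of the globin UMIs, and the part of globin in other values was not tested. Of 12 myeloid markers, *Ptprc* was at 0 by the gate, and the sum was 220, 107, 139 and 170 CPM with *Spp1* or *Lyz2* highest. The 5 neutrophil markers summed to 7.32, 72.5, 23.04 and 8.04 CPM and the 8 mural markers to 28.2, 100.4, 79.0 and 86.6 CPM. Their part in the results was not tested.

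**Figure D5:**
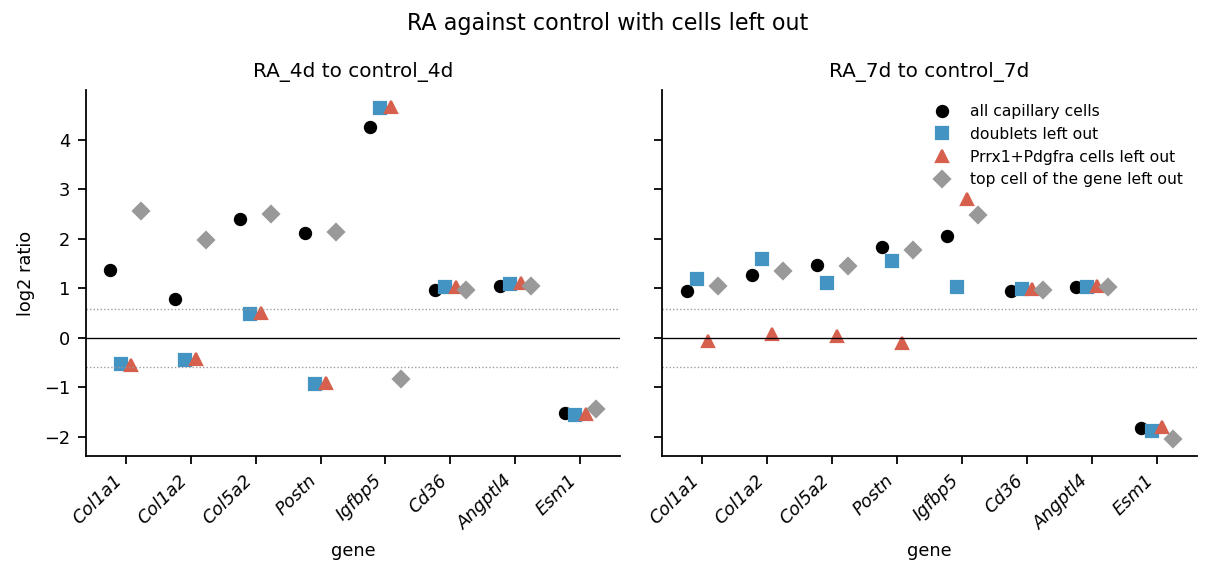
Log2 ratio of RA to control at 4 dpf (left) and 7 dpf (right) for 8 genes in all capillary cells, without called doublets, without cells with *Prrx1* and *Pdgfra* UMIs, and without the highest cell of the gene in each library. Dotted lines mark 1.5-fold. Without the *Prrx1* and *Pdgfra* cells the ratios of *Col1a1*, *Col1a2* and *Postn* are at most 0.084, and those of *Cd36*, *Angptl4* and *Esm1* hardly move.

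The third comparison concerns time. From 4 to 7 dpf 289 of 7498 genes were higher in control (3.85%) and 106 lower (1.41%), so 73.2% of the genes past 1.5-fold were higher, against 60.3% with TMM scaling. In RA 369 of 6952 were higher (5.31%) and 181 lower (2.6%). The 2 time comparisons share no library with each other, but each shares its libraries with the comparisons of RA and control. Of 6843 genes compared in both, 70 were higher at 7 dpf in both conditions, 19 lower in both and 15 opposite. Among those 6843 genes, 243 were higher and 78 lower in control, and 329 higher and 167 lower in RA.

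Of 14 MHC class I genes compared, 3 were past 1.5-fold higher at 7 dpf and none lower in each condition, beside 3.85% of all genes higher in control and 5.31% in RA. The median log2 ratio was 0.25 in control and 0.13 in RA, where it was -0.14 under the gate with no venular or arterial UMI. *H2-K1*, a classical heavy chain gene, was at 441 CPM in control_4d, 472 in RA_4d, 710 in control_7d and 748 in RA_7d. Both libraries of 7 dpf were above both of 4 dpf, and RA and control differed little within a time. *H2-Q7*, a nonclassical one, was at 37.6, 48.0, 96.6 and 76.7 CPM. *B2m*, the shared light chain gene, was at 892, 841, 1269 and 1103 CPM. Because genes of this family are near-identical, reads of *H2-Q6* and *H2-Q7* may be split between them. The list's medians were smaller in other endothelial cells in control (-0.03) and similar in RA (0.11). Immediate early genes, which dissociation can induce, moved in the same time comparisons. Of 17 compared, 2 were past 1.5-fold higher at 7 dpf in control and 3 in RA, and none was lower. Their median log2 ratios were 0.12 and 0.27, and their part in the time results was not tested.

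*Igf1*, the growth factor gene, was at 32.1, 45.6, 74.3 and 86.6 CPM in control_4d, RA_4d, control_7d and RA_7d. *Ltbp4*, a latent TGF-β binding protein, was at 86.4, 67.2, 143 and 167 CPM, *Nav3* at 86.4, 80.7, 166 and 132 CPM, and *Hspa1a*, a heat shock gene, at 26.5, 31.2, 57.5 and 70.5 CPM. *Mgp*, matrix Gla protein, *Tagln*, *Postn*, *Col1a1* and *Col1a2* were also among the 10 highest. The mesenchymal marker sums given above, which include *Postn*, *Col1a1* and *Col1a2*, were higher at 7 dpf as well. Without the cells with *Prrx1* and *Pdgfra* UMIs the log2 ratio of *Col1a1* between 7 and 4 dpf was 1.84 in control and 2.31 in RA (1.40 and 0.98 with them). *Mgp* had log2 ratios of 2.45 and 3.87, with 58.3% of 24 UMIs in 1 cell in control_4d. Among the genes lower at 7 dpf in both conditions, *Fabp5*, a fatty acid-binding protein, was at 1051, 895, 656 and 589 CPM. *Stmn2*, a microtubule regulator, was at 55.4, 101, 26.8 and 48.2 CPM, and *Camk1d*, a calmodulin-dependent kinase, at 558, 1053, 360 and 458 CPM. *Ctla2b*, *Gm19951*, *Sncg*, *Plaur*, *Gphn*, *Plscr2* and *Selenoh* completed the 10, with log2 ratios between -1.75 and -0.56.

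Further groups are given by their counts between RA and control, to be read beside the 4.63% of all genes higher and 3.03% lower at 4 dpf and the 3.92% and 2.74% at 7 dpf. Some of these lists hold genes whose UMIs the gate limited. They are *Pecam1* and *Cdh5* (pan-endothelial), *Cdh5* (junctions), *Kdr* (VEGF and angiopoietin), *Selp* and *Ackr1* (venular), and *Sema3g*, *Gja4* and *Gja5* (arterial). Of 20 pan-endothelial genes none passed 1.5-fold at 4 or 7 dpf (medians 0.097 and 0.063). Notch pathway genes had 1 of 11 lower at 4 dpf and 1 of 13 higher at 7 dpf. Of 13 basement membrane genes 1 was higher at 7 dpf, *Lamb2*, while *Col4a1*, the type IV collagen chain, was at 2624 CPM in control_4d, 2464 in RA_4d, 2823 in control_7d and 2871 in RA_7d. Junction genes had none of 13 past 1.5-fold at 4 dpf and 2 of 14 higher at 7 dpf, *Jam2* and *Jam3*. Genes of VEGF and angiopoietin signalling had 1 higher and 1 lower of 12 at 4 dpf and 1 lower at 7 dpf. Interferon response genes had 1 of 17 lower at 4 dpf and 3 of 20 higher at 7 dpf. NF-κB response genes had 2 higher and 1 lower of 15 at 4 dpf and 3 lower of 17 at 7 dpf, with medians of 0.28 and -0.22. TGF-β and BMP genes had 3 higher and 1 lower of 14 at 4 dpf and 1 lower of 14 at 7 dpf. Shear response genes had 1 of 7 higher at 4 dpf, *Hmox1*, and 2 of 7 at 7 dpf, *Klf4* and *Thbd*. Of 10 coagulation genes 2 were higher at 4 dpf, *F8* and *Tfpi*, and at 7 dpf 1 was higher and 1 lower. Angiocrine genes had none of 12 past 1.5-fold at 4 dpf and 1 of 13 higher at 7 dpf, *Il6*. Genes of endothelial to mesenchymal transition had 2 of 6 higher at 4 dpf, *Fn1* and *Zeb2*, and 1 lower, *S100a4*, and 1 of 9 higher at 7 dpf, *Zeb2*. In control_4d 56.8% of the *Zeb2* UMIs came from 1 cell. Of 5 genes of fenestrated or sinusoidal endothelium 2 were higher at 4 dpf, *Stab1* and *Stab2*, the latter with 101 UMIs from 8 cells of RA_4d, and at 7 dpf 1 was higher and 1 lower. Venular identity genes had 1 of 9 higher at 4 dpf and 1 higher and 1 lower of 12 at 7 dpf, and arterial ones 2 higher and 1 lower of 7 and 3 higher and 1 lower of 9. No MHC class I gene passed 1.5-fold at either time, of 13 and 15 compared. No MHC class II, neutrophil, lymphocyte, muscle or Schwann cell gene had enough UMIs to be compared at either time. Of 17 immediate early genes, which dissociation can induce, none passed 1.5-fold at either time (medians -0.0056 and 0.12).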

How the data were processed

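Callus tissue was scraped from the bone surface, digested with collagenase and loaded on a droplet platform with 3′ chemistry. The authors made the deposited UMI counts per gene and cell with Cell Ranger 7.0.1 on mm10, per the submitters' processing notes. Filtering was not undone, so barcodes are those the authors deposited. From the 34038 barcodes, cells with 4000 to 50000 UMIs, 2000 to 7000 genes and at most 8% mitochondrial UMIs were kept. Doublets were called with Scrublet per library (scanpy 1.11.5), kept in the values reported and left out as an alternative. Capillary cells were gated on raw UMIs, and their counts were summed per library and scaled to 1000000 (CPM). Python 3.11.15, numpy 2.4.6, scipy 1.17.1 and pandas 2.3.3 were used. The ratios were checked on simulated independent Poisson counts, which hold no spread between cells, so the check does not cover UMIs gathered in single cells.

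Exact binomial, Poisson and conditional ratio intervals (95%) cover counting error only. Thinning drew a fixed number of UMIs per cell without replacement and left out shallower cells. The cells and the 34 gene lists were chosen with earlier results of these data known, and 1 of their 398 genes had no row. Genes named are the gate genes and markers, the 10 highest and 10 lowest in capillary against other endothelial cells by the weakest library (at least 100 CPM in the higher sum of every library), the 10 highest and 10 lowest in RA or with time by the smaller of both ratios (at least 50 CPM in the higher library), the 5 highest and 5 lowest with *Prnd* (at least 100 CPM), and the members of each list past 1.5-fold (up to 5) or most abundant (up to 3). Further genes named were chosen after their values were seen, and some genes that the rule selects are not reported here. Alternatives changed the cell filter, doublets, denominator, gate, scaling, pseudocount, minimum count, fold and weight of cells.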

Additional observations from a re-analysis of the deposited data

Results flagged for a closer look

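The log2 ratio of RA to control had opposite signs at 4 and 7 dpf for 2 chemokine genes of the leukocyte adhesion list, and the difference between the times was not tested because each condition is 1 library. *Cxcl2*, a neutrophil chemokine, had 1.09 at 4 dpf and -1.37 at 7 dpf, from 32.1 CPM in control_4d, 69.2 in RA_4d, 27.7 in control_7d and 10.11 in RA_7d. Without the cell with the most *Cxcl2* UMIs in each library the values were 1.22 and -1.98. *Cxcl9*, an interferon-induced chemokine, had 0.71 at 4 dpf and -2.41 at 7 dpf, and 1.00 and -0.42 without the cell with the most *Cxcl9* UMIs in each library.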

How the results depend on the processing

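No paired analysis was possible because each condition is 1 library and the labels give no replicate numbers, and for the same reason leaving out a library in turn was not applicable. The alternatives that leave out cells with *Prrx1* and *Pdgfra* UMIs or the highest cell, that gate after thinning for expression, and that thin with the endothelial denominator were chosen after seeing the data. Values below are in the order control_4d, RA_4d, control_7d and RA_7d, or for counts RA against control at 4 dpf, at 7 dpf, then 7 against 4 dpf in control and in RA.

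The capillary share was 17.5%, 17.3%, 29.8% and 18.7% of endothelial cells, 3.47%, 3.76%, 4.51% and 3.87% of kept cells gated after thinning to 8000 UMIs, and 25.9%, 28.9%, 34.6% and 23.5% with both. With no *Selp*, *Ackr1*, *Sema3g*, *Gja4* or *Gja5* UMI allowed it was 1.33%, 0.949%, 2.45% and 1.68%, and the ratio of RA_4d to control_4d was 0.711. Without the *Mki67* condition it was 3.13%, 2.75% and 4.42% in the first 3 libraries, with 5 *Gpihbp1* and *Kdr* UMIs 3.47% in control_7d, and with the looser cell filter 1.78% in RA_4d and 3.34% in control_7d. The ratio of RA_7d to control_7d among endothelial cells was 0.629.

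Counts of genes past 1.5-fold moved with every minimum and weight. Higher genes numbered 162, 166, 131 and 215 with a pseudocount of 10 CPM, 738, 735, 801 and 944 from 30 UMIs, 90, 117, 68 and 109 from 300 UMIs, 78, 121, 126 and 140 in cells thinned to 4000 UMIs, and 48, 97, 70 and 117 past 2-fold. Lower genes numbered 85, 86, 45 and 104, then 505, 502, 341 and 546, then 53, 66, 22 and 51, then 57, 97, 44 and 51, and 28, 29, 23 and 36 under the same settings, and 297 at 4 dpf with TMM scaling. Against other endothelial cells, 10 genes were higher and 143 lower with 10 CPM, and 6 and 80 in thinned cells, while 483 were lower from 30 UMIs and 129 from 300 UMIs.

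Of 142 ratios of named genes, the direction held in 142 with TMM scaling, 142 with 10 CPM, 138 without doublets, 131 in thinned cells, 130 with the stricter gate, 136 without *Prrx1* and *Pdgfra* cells, 129 gated after thinning and 139 without the highest cell. Of the 49 changes of sign over these 8 alternatives, 32 were of ratios within 1.5-fold, among them *Igfbp5* between RA_7d and RA_4d (0.38, and -1.05 in thinned cells) and, under the stricter gate, *Col5a2* (0.41 and -0.61) and *Ddx39* (-0.34 and 0.26) in the same comparison and *Tagln* in RA against control at 7 dpf (0.37 and -0.84). The 17 that started past 1.5-fold follow, and the cause was not tested. For RA against control at 4 dpf *Igfbp5* was -0.86 under the stricter gate, -0.74 gated after thinning and -0.82 without the highest cell. *Postn* was -0.93 without doublets and -0.91 without *Prrx1* and *Pdgfra* cells, *Col1a2* -0.45 and -0.43, and *Col1a1* -0.53 and -0.54. Gated after thinning, *Stmn2* was -0.090 and *Ccl2* 0.43 at 4 dpf and *Mgp* -0.093 at 7 dpf. At 7 dpf *Postn* was -0.11 and *Col1a1* -0.070 without *Prrx1* and *Pdgfra* cells, and under the stricter gate *Col1a2* was -0.20 and *Col1a1* -0.56, with *Col1a1* at -0.34 between RA_7d and RA_4d. Medians of lists changed sign in 122 of 1017 alternative values, 114 of them from within 1.5-fold, such as arterial identity at 4 dpf (0.24, and -0.53 in thinned cells), fenestrated or sinusoidal genes with time in RA (-0.52, and 0.18 under the stricter gate), mural markers with time in RA (-0.57, and 0.87 from 30 UMIs), myeloid markers with time in control (-0.15, and 0.80 gated after thinning) and cell cycle at 4 dpf (-0.26, and 0.095 in thinned cells). The 8 that started past 1.5-fold were of mesenchymal markers at 4 dpf (-0.53 without doublets, -0.54 without *Prrx1* and *Pdgfra* cells), myeloid markers (0.67 at 4 dpf gated after thinning, -0.52 with time in RA without doublets), erythroid markers (-0.84 at 7 dpf without *Prrx1* and *Pdgfra* cells, 0.50 with time in control without doublets), lymphatic identity (1.33 with time in RA from 30 UMIs) and cell cycle (0.086 with time in RA under the stricter gate).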
